A study of Homo sapiens with 9 samples.

Results

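The genes described here are the INK4 locus on the short arm of chromosome 9 (CDKN2A, CDKN2B and the adjacent MTAP), further inhibitors of cyclin-dependent kinases (CDKN2C, CDKN2D, CDKN1B and CDKN1C), and their targets CDK4, CDK6 and RB1. They were taken by gene symbol from the annotation of the array, and 9 of the 10 were found among 20893 transcript clusters tested, 17705 of which have a symbol. CDKN2C was not among the named transcript clusters and was not analysed here. The cells were L-1236, a line established from Hodgkin lymphoma, and RNA was measured on Clariom S arrays, 3 for each of 3 groups. Clone g2_1 was made with Cas9 and a guide to the second exon of LTA, the gene of the cytokine lymphotoxin alpha, and clone g3_4 with a guide to the fourth exon. Control cells, called v2, carried the lentiviral CRISPR vector that the clones carry too, with no guide to LTA named in their genotype label, and their titles call them wild type. Each knockout group is 1 single-cell clone, and it is not clear from the labels whether the control was a single clone as well. Before the experiment the knockout clones grew in L-1236 conditioned medium, and all cells then spent 72 h in normal medium. Nothing in the labels ties the 3 arrays of a group to separate cultures, so the p-values reflect only the variation among these arrays, part or all of which may be technical.

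Progression from G1 into S phase is governed by the D-type cyclins with CDK4 and CDK6, which phosphorylate the retinoblastoma protein RB1 and so release the E2F transcription factors. INK4 proteins bind CDK4 and CDK6 and keep them from the D-type cyclins, whereas the CIP/KIP proteins act on complexes of CDK2 and other kinases. CDKN2A encodes the INK4 inhibitor p16 and, from a start further upstream and another reading frame, ARF, which restrains MDM2 and thereby protects p53. CDKN2B and MTAP, the enzyme that salvages methionine from methylthioadenosine, lie on either side of CDKN2A and are often deleted with it in tumours.

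The promoters of the locus are shown because its 3 genes lie side by side and differ in their values below. In the RefSeq promoter table (build GRCh38.p14), 9 of the 10 genes had entries, 13 in all, and CDKN1C had none. The 250 bases before each start are printed 5′ to 3′ on the strand of the gene, with GC boxes (GGGCGG or its reverse complement CCGCCC) in capitals. They are chr9:21995325-21995574 (minus strand, the ARF start of CDKN2A), chr9:21974858-21975107 (minus strand, the p16 start), chr9:22009306-22009555 (minus strand, CDKN2B) and chr9:21802386-21802635 (plus strand, MTAP).
CDKN2A, ARF start: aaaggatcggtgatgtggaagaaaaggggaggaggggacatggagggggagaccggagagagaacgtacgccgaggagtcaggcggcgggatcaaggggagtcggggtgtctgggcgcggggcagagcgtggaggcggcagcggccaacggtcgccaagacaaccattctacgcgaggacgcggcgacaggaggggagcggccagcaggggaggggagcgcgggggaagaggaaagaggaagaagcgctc
CDKN2A, p16 start: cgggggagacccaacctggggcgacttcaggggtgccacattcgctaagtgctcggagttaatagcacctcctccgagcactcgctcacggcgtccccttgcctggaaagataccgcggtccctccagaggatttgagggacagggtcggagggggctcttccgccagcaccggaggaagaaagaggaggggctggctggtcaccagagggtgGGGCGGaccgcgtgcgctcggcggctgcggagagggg
CDKN2B: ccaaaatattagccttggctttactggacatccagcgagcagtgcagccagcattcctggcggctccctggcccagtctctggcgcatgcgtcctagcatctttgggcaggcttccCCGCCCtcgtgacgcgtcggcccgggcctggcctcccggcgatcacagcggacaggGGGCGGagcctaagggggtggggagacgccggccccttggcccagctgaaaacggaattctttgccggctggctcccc
MTAP: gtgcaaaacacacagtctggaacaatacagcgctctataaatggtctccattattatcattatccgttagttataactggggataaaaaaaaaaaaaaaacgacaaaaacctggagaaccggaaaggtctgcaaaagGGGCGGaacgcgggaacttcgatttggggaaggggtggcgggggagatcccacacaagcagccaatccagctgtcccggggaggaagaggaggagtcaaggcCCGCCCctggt
The window before the ARF start of CDKN2A held no GC box and the one before its p16 start held 1, while CDKN2B and MTAP had 2 each. A GC box was present in 42.6% of the 35116 promoters of the table. CG dinucleotides numbered 24 before the ARF start, 20 before the p16 start, 18 before CDKN2B and 11 before MTAP, against a median of 11 over all promoters. MTAP also had a TATA box (TATAAA on either strand, found in 10.7% of promoters). None of the 13 windows held an E2F motif (TTTCGCGC, TTTGGCGC, TTTCCCGC or TTTGCCGC on either strand), which was found in 2.79% of all promoters. The only entry of RB1 was a start further downstream in the gene, so the window before its main start was not searched. Matches were counted with overlaps, and they describe letters and not sites.

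LTA, which checks the labels, had log2 signals of 7.97, 7.53 and 7.11 in g2_1 and 6.94, 7.25 and 6.61 in g3_4, against 11.58, 11.07 and 11.08 in control cells. It fell by 3.71 in g2_1 and by 4.31 in g3_4 (limma adjusted p = 1.47e-06 and 4.21e-07), so all clone arrays lay below all control arrays. All values are RMA log2 signals, whose array medians were 6.15 to 6.19 in the clones and 6.27 to 6.29 in control cells. Centring every array on its median would add 0.11 to a fold change. The first quartile of the transcript clusters' mean signals was 4.65, and values near it cannot be told from the background of the array here. Control array 1 stood apart, with a mean absolute deviation from its group of 0.177, against 0.0898 to 0.131 for the other arrays. The array numbered 1 also deviated most within g2_1 (0.112) and within g3_4 (0.118). Arrays numbered 1 had an RNA integrity number of 10 in every group, against 9.5 to 9.6 for the others. Whether RNA quality had a part in these deviations was not tested. Markers are said to have risen or fallen where they passed the test in both clones with the same sign. Of all transcript clusters, 4.48% rose and 6.97% fell in this way, and the marker counts were not tested against these shares. Of 8 markers of Hodgkin cells, 1 rose, TNFRSF8 (CD30), with 11.72 to 12.01 in the clones and 10.91 to 11.25 in control cells, and 2 fell. These were GATA3, with 8.36 to 8.62 in the clones and 9.87 to 10.04 in control cells, and BATF3, with 10.67 to 10.98 and 11.16 to 11.41. The summed log2 signals of the 8 were 75.5 to 77.4 in the clones and 77.2 to 79.8 in control cells. Of 7 B cell markers measured, POU2AF1 (fell by 1.52) and PAX5 (fell by 0.81) fell and BLK rose by 0.89, while MS4A1 (CD20) lay near the floor at 4.22 to 4.56 in the clones and 4.35 to 4.40 in control cells. CD79A and CD79B, at 6.25 to 7.09 over all arrays, did not pass in either clone. The summed signals of the 7 B cell markers were 43.5 to 45 in the clones and 44.8 to 46.1 in control cells. The part of these differences in the values of the members was not tested. Of the T cell markers, CD3D, CD3E and CD3G had 3.89 to 4.94 in the clones and 4.18 to 4.98 in control cells, whereas CD2 rose (9.28 to 9.54 in the clones and 7.0 to 8.25 in control cells). CD5 did not pass, with 6.36 to 6.95 in the clones and 6.35 to 6.75 in control cells. No myeloid marker of 7 passed the test in both clones, and CSF1R had 6.95 to 7.77 over all arrays. CD68 had 6.11 to 6.82 in the clones and 5.41 to 6 in control cells. It passed in g3_4 (limma adjusted p = 0.0401) and not in g2_1 (adjusted p = 0.0723).

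CDKN2A was nearly lost from both clones, CDK4 and RB1 fell and CDK6 rose, while CDKN2B, CDKN2D, CDKN1B and CDKN1C did not pass the test in either clone. In g2_1, 4 of the 9 members passed (limma, Benjamini-Hochberg over all transcript clusters), against 14.3% of all transcript clusters. In g3_4 the same 4 of 9 members passed, against 14.3% of all. Passing in both clones with the same sign, the criterion used below for rose and fell, was met by 3 members that fell and 1 that rose, against 11.4% of all transcript clusters. Of all transcript clusters, 4.48% rose and 6.97% fell by this criterion. With a log2 fold change of 1 or more also required, only CDKN2A of the 9 passed, against 4.17% of all transcript clusters in g2_1, 4.24% in g3_4 and 4.18% in the mean of both clones. The clones were compared with the same 3 control arrays, so the comparisons are not independent. The clone arrays of 4 members did not overlap the control arrays, against 20.4% of all transcript clusters. The median change of the 9 members was -0.28 in g2_1 and -0.13 in g3_4, beside 0.03 over all transcript clusters in each clone. In these bulk samples, fewer cells with a transcript and less of it per cell cannot be told apart.

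**Figure D1:**
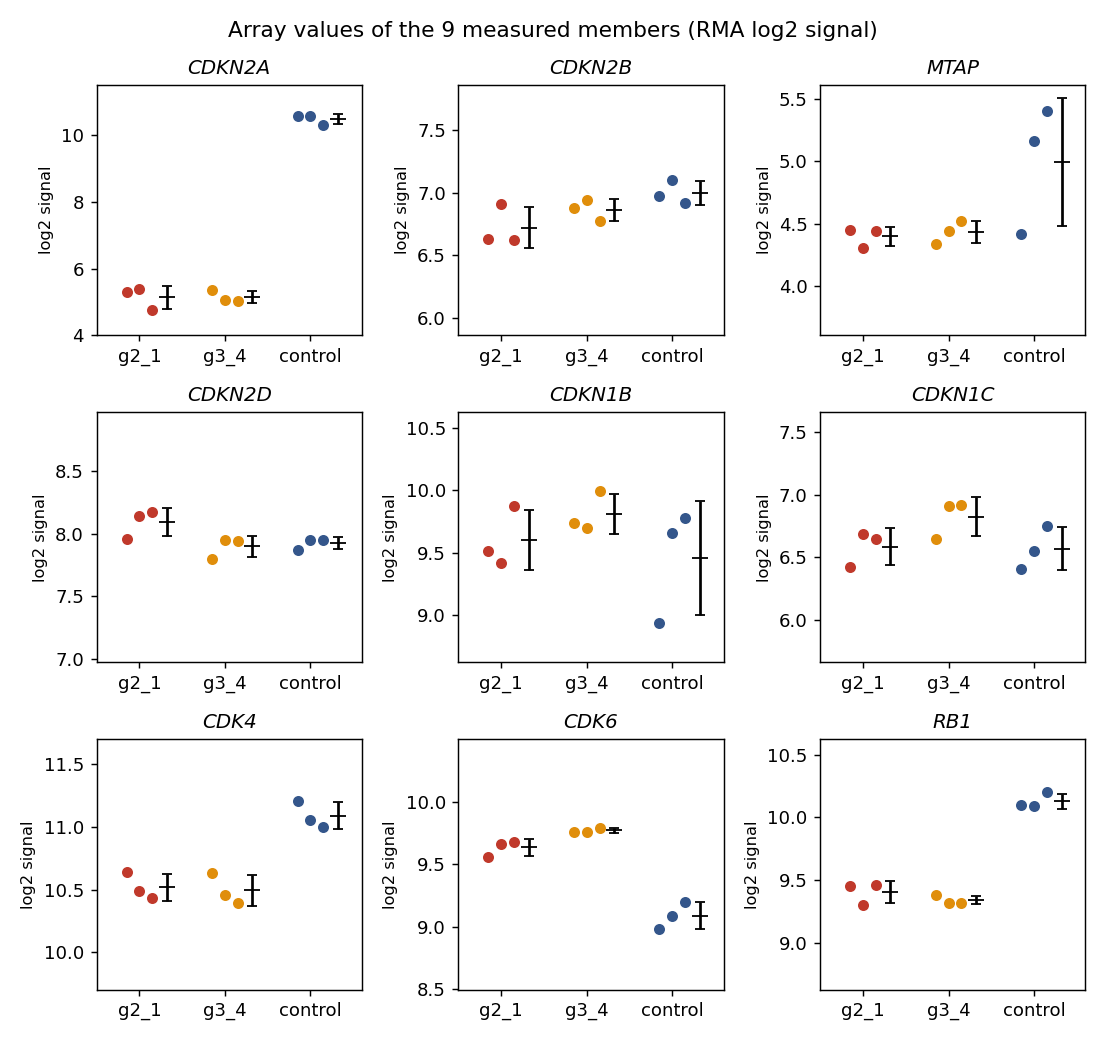
Log2 RMA signal of each member gene on each of the 9 arrays, with g2_1 and g3_4 left of control cells; points are arrays, the black bar beside them is the mean with its SD, and each panel has its own axis. CDKN2A is near 5 on every clone array and above 10 on every control array, and for MTAP control array 1 lies among the clone arrays.

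CDKN2A, the INK4 gene of p16 and ARF, had log2 signals of 5.31, 5.38 and 4.75 in g2_1 and 5.37, 5.06 and 5.03 in g3_4, against 10.56, 10.56 and 10.30 in control cells. All 6 clone arrays were low and all 3 control arrays high, with a gap of 4.92 between the nearest arrays. The means were 5.15 ± 0.35 in g2_1, 5.15 ± 0.19 in g3_4 and 10.47 ± 0.15 in control cells (SD, n = 3). CDKN2A fell by 5.33 in g2_1 (SE 0.17, limma adjusted p = 6.42e-09) and by 5.32 in g3_4 (SE 0.17, adjusted p = 6.09e-09), which is 40.1-fold and 39.9-fold lower. Only 20 of the 20893 transcript clusters, CDKN2A included, fell by as much or more in the mean of both clones (0.0957%). The clone signals, 4.75 to 5.38, lay not far above the first quartile of 4.65, so the size of the fall may be a lower bound. The probe set has 1 value per array, so transcripts of p16 and ARF were not told apart.

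CDKN2B encodes p15, an INK4 inhibitor that is induced by TGF-beta in epithelial cells. Its signals were 6.63, 6.91 and 6.62 in g2_1 and 6.88, 6.94 and 6.77 in g3_4, against 6.97, 7.10 and 6.92 in control cells. The g3_4 arrays overlapped the control arrays, and all g2_1 arrays lay just below them. Its change was -0.28 in g2_1 (95% interval -0.52 to -0.03, adjusted p = 0.135) and -0.13 in g3_4 (-0.38 to 0.11, adjusted p = 0.519).

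MTAP, on the other side of CDKN2A, was low on every clone array, at 4.45, 4.31 and 4.44 in g2_1 and 4.34, 4.44 and 4.52 in g3_4, against 4.42, 5.16 and 5.40 in control cells. Control array 1 thus stood at the level of the clones, and the other control arrays lay above all clone arrays. MTAP did not pass in g2_1 (-0.59, SE 0.20, adjusted p = 0.0821) or in g3_4 (-0.56, SE 0.20, adjusted p = 0.100). The mean of both clones passed narrowly (-0.58, SE 0.18, adjusted p = 0.0443), in a comparison that 18% of all transcript clusters passed. Without control array 1 the change was -0.88 in g2_1 (adjusted p = 0.000323) and -0.85 in g3_4 (adjusted p = 0.000432). Without control array 3 the mean of both clones changed by -0.37 (adjusted p = 0.180). The mean signal in the clones, 4.40 ± 0.08 in g2_1 and 4.43 ± 0.09 in g3_4 (SD, n = 3), lay under the first quartile of the array.

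CDKN2D encodes p19, a further INK4 inhibitor of CDK4 and CDK6. Its signals were 7.96, 8.14 and 8.17 in g2_1 and 7.80, 7.95 and 7.94 in g3_4, against 7.87, 7.95 and 7.95 in control cells. The g3_4 arrays overlapped the control arrays, and all g2_1 arrays lay just above them. The differences were 0.17 in g2_1 (95% interval -0.05 to 0.38, limma adjusted p = 0.331) and -0.03 in g3_4 (-0.24 to 0.19, adjusted p = 0.909). Of the 3 INK4 genes measured, 1 fell and none rose.

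The CIP/KIP inhibitors did not pass the test in either clone. CDKN1B encodes p27, which holds CDK2 complexes inactive in resting cells. It had 9.51, 9.42 and 9.87 in g2_1 and 9.74, 9.70 and 9.99 in g3_4, against 8.94, 9.66 and 9.78 in control cells. Control array 1 was the lowest of the 9 and the remaining arrays overlapped. The difference was 0.14 in g2_1 (95% interval -0.32 to 0.60, adjusted p = 0.752) and 0.35 in g3_4 (-0.11 to 0.81, adjusted p = 0.339), and it was -0.01 in the mean of both clones without that array. CDKN1C encodes p57, an imprinted inhibitor of chromosome 11. Its signals were 6.42, 6.69 and 6.65 in g2_1 and 6.65, 6.91 and 6.92 in g3_4, against 6.41, 6.55 and 6.75 in control cells, and the groups overlapped. It differed by 0.02 in g2_1 (95% interval -0.26 to 0.30, adjusted p = 0.960) and by 0.26 in g3_4 (-0.02 to 0.54, adjusted p = 0.239). CDKN1A, which encodes p21 and is a target of p53, was 0.79 higher in the mean of both clones and passed there (SE 0.23, limma adjusted p = 0.0332). Taken singly, CDKN1A did not pass in g2_1 (adjusted p = 0.0515) or in g3_4 (adjusted p = 0.0992). Its control arrays spread over 9.34, 9.85 and 10.60. CDKN1A passed in both clones on centred arrays (0.90, adjusted p of at most 0.0493) and with array number as a block (adjusted p of at most 0.0186), and over fits that left out 1 array it was 0.50 to 1.13 higher.

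The kinases that INK4 proteins bind moved in opposite directions. CDK4 had 10.64, 10.49 and 10.43 in g2_1 and 10.63, 10.46 and 10.39 in g3_4, against 11.21, 11.06 and 11 in control cells. All clone arrays lay below all control arrays, with a gap of 0.36. CDK4 fell by 0.57 in g2_1 (SE 0.11, adjusted p = 0.00459) and by 0.60 in g3_4 (SE 0.11, adjusted p = 0.00351), or 1.48-fold and 1.51-fold lower. CDK6, which is prominent in blood cells, had 9.56, 9.66 and 9.68 in g2_1 and 9.76, 9.76 and 9.79 in g3_4, against 8.98, 9.09 and 9.20 in control cells. Here all clone arrays lay above all control arrays, again with a gap of 0.36. CDK6 rose by 0.54 in g2_1 (SE 0.09, adjusted p = 0.00262) and by 0.68 in g3_4 (SE 0.09, adjusted p = 0.000635), or 1.46-fold and 1.60-fold higher. Levels of different genes come from different probes and were not set against each other.

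RB1, the pocket protein that CDK4 and CDK6 phosphorylate, had 9.45, 9.30 and 9.46 in g2_1 and 9.38, 9.32 and 9.32 in g3_4, against 10.10, 10.09 and 10.20 in control cells. The groups were tight and did not overlap, with a gap of 0.63 between the nearest arrays. RB1 fell by 0.73 in g2_1 (SE 0.09, adjusted p = 0.000325) and by 0.79 in g3_4 (SE 0.09, adjusted p = 0.000184), which is 1.65-fold and 1.73-fold lower. After CDKN2A, this was the largest fall among the members that passed in both clones.

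**Figure D2:**
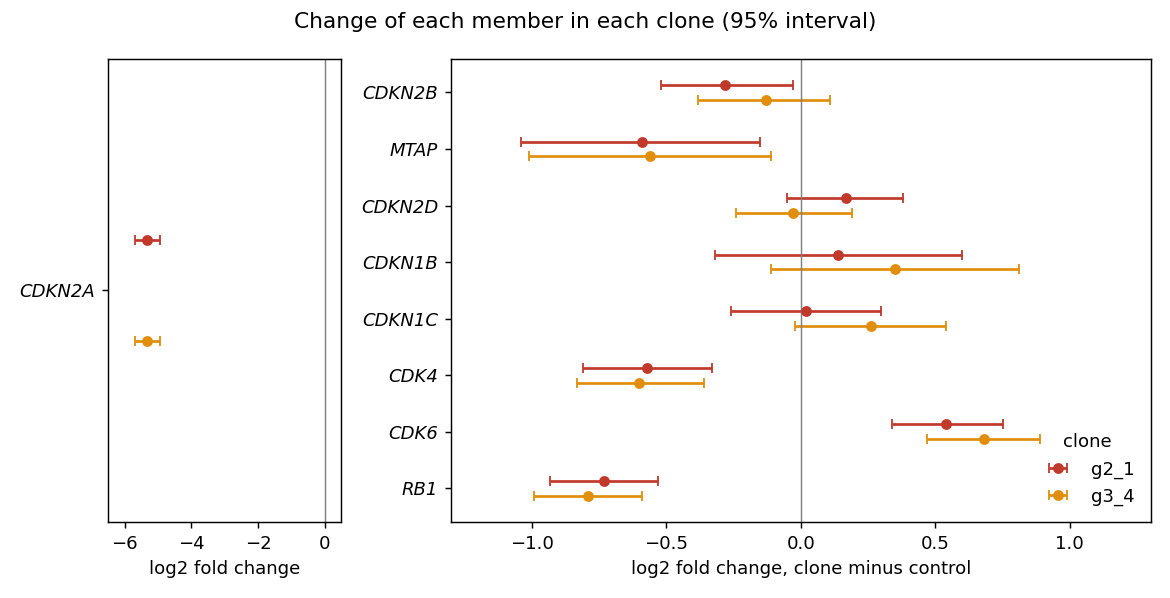
Log2 fold change of each member, g2_1 minus control above g3_4 minus control, with 95% limma intervals, not adjusted for the number of tests, as bars; CDKN2A has a panel and axis of its own. CDKN2A lies below -5 in both clones, RB1 and CDK4 lie left of the line at 0, and CDK6 lies right of it. The intervals of MTAP in both clones and of CDKN2B in g2_1 also lie left of it, though neither gene passed after adjustment in a single clone. The intervals of CDKN1B, CDKN1C and CDKN2D, and of CDKN2B in g3_4, cross it.

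Directly compared, the clones did not differ in any member at the threshold. For g2_1 minus g3_4, 0 of 9 members passed in limma and 0 had an unadjusted p under 0.05, against 0.0526% of all transcript clusters past the adjusted threshold. CDKN2A differed by -0.01 (95% interval -0.38 to 0.37). CDKN2D, the member with the lowest p, was 0.19 higher in g2_1 (95% interval -0.02 to 0.41, limma adjusted p = 0.997). CDKN1C was 0.24 lower in g2_1, with an interval of -0.52 to 0.04.

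Many of the genes around CDKN2A lay at the floor of the array. Genes were ordered along the chromosome by RefSeq, and the 3 nearest measured on the MTAP side are interferon genes, IFNA1, IFNA8 and IFNA2. Their signals were 4.03 to 4.76 in the clones and 3.97 to 4.64 in control cells, near the floor, so a fall could not be seen in them. On the CDKN2B side, DMRTA1 changed by 0.22 in the mean of both clones and did not pass. ELAVL2, which encodes a neuronal RNA-binding protein, fell by 1.24, with means of 4.11 in the clones and 5.34 in control cells, so its clone signal was at the floor and the size of its fall is a lower bound. IZUMO3, the next gene, did not pass. Further out on the MTAP side, KLHL9, a substrate adaptor of a CUL3 ubiquitin ligase, fell by 1.27 (6.80 in the clones and 8.06 in control cells).

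Within 15 places on either side, 7 of 28 neighbours fell and 0 rose in both clones, against 7.45% and 4.86% of all named genes. Of those 28, 17 lay under the first quartile on all 9 arrays and could not have shown a fall. The 7 that fell were ELAVL2, KLHL9 and, beyond ELAVL2, CAAP1, PLAA, IFT74, MOB3B and C9orf72. The genes beyond ELAVL2 were named after their values were seen. MOB3B changed by -2.49 in g2_1 and -2.37 in g3_4 and IFT74 by -2.26 and -2.19, with a wide spread of their control arrays (SD 1.17 and 0.93). IFT74 had 3.93 to 4.19 in the clones, under the first quartile, so its values are lower bounds of a fall. PLAA changed by -1.39 in g2_1 and -1.3 in g3_4, C9orf72 by -1.3 and -1.29, and CAAP1 by -0.74 and -0.70.

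**Figure D3:**
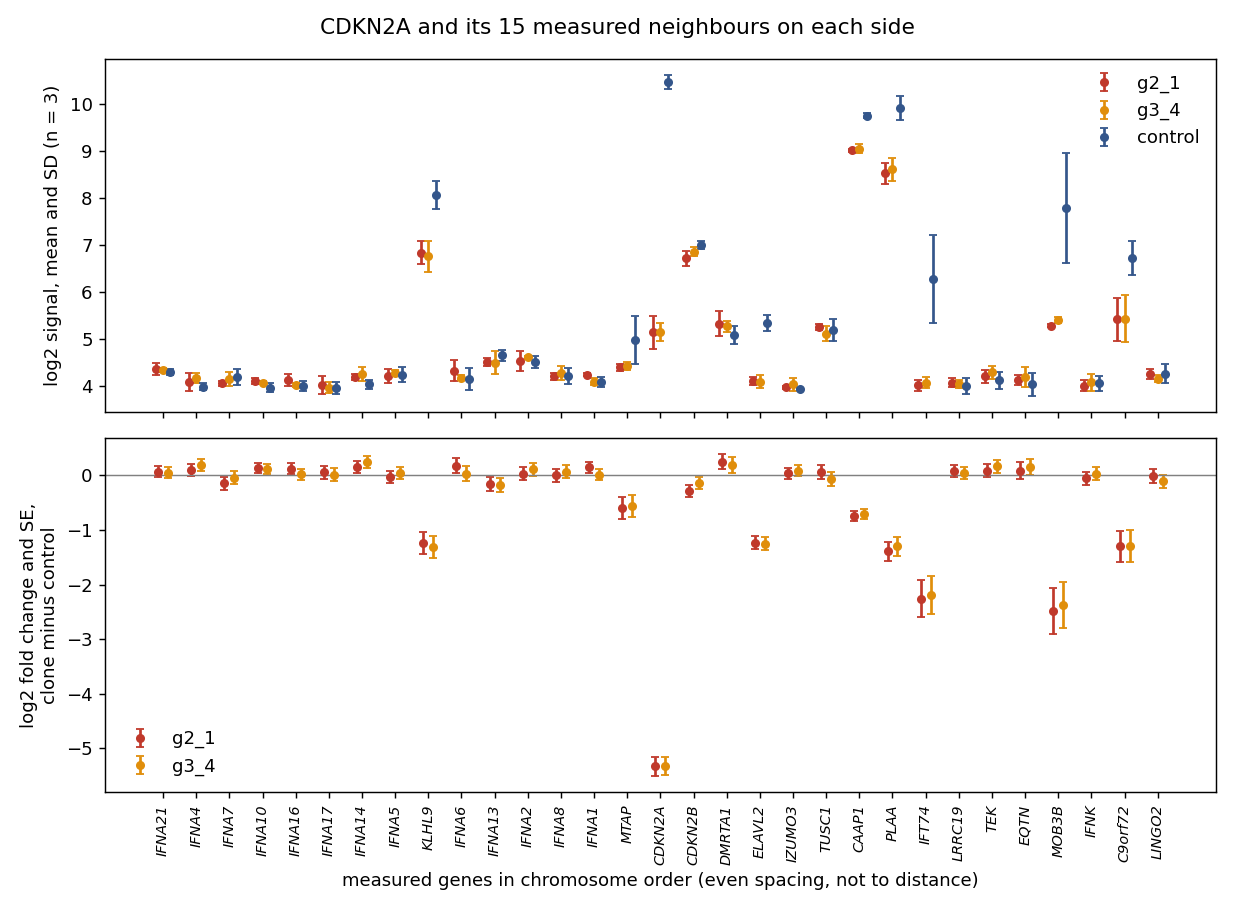
Measured genes in their order around CDKN2A, 15 places on either side (order only, not distance); the upper panel gives log2 signal as mean and SD of 3 arrays for g2_1, g3_4 and control cells, and the lower panel the log2 fold change of each clone minus control with its SE. CDKN2A stands below -5 in both clones, CDKN2B and DMRTA1 beside it lie near 0, and most genes without a change lie near a signal of 4.

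Chromosome 9 held many genes that fell, with the largest shares in the first 4 bins of 50 genes from the end of the short arm. Of its 709 named genes, 121 fell (17.1%) and 31 rose (4.37%), against 7.45% and 4.86% of the 17687 named genes placed on all chromosomes, and its share that fell was the highest of 23 chromosomes. In bins of 50 genes, 34%, 32%, 44% and 38% fell in the first 4 bins from the end of the short arm, of which the second holds CDKN2A. Bin 5 had 16% fallen and 12% risen, bins 6 to 8 had 4%, 2% and 4% fallen, bins 9 to 13 had 16%, 12%, 14%, 14% and 10%, and bin 14 had 1.69%. The first 200 genes, a boundary chosen after the bins were seen, had 74 that fell and 1 that rose, and the other 509 had 47 and 30. With every array centred on its median the shares that fell were 35% and 8.25%, beside 37% and 9.23% on the deposited scale. The 20 nearest neighbours of CDK4 held 5 that fell and 1 that rose, those of CDK6 1 and 1, and those of RB1 1 and 0. Those of CDKN1B held 3 and 1, those of CDKN2D 2 and 0, and those of CDKN1C 0 and 1. The lowest change among the neighbours of RB1 was -5.21 in the mean of both clones, beside -1.84 for CDK4 and -1.52 for CDK6.

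**Figure D4:**
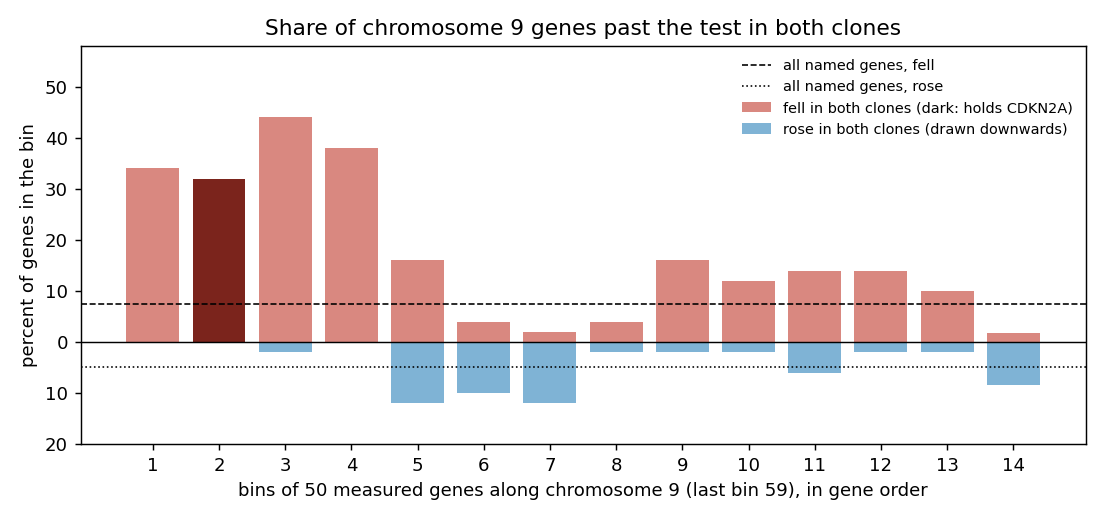
Percent of named genes on chromosome 9 that fell or rose in both clones, in bins of 50 genes in gene order (the last bin holds 59), with rises drawn downwards and a dashed (fell) and a dotted (rose) line for all chromosomes. The first 4 bins, from 32% to 44% fallen, stand above the remaining 10, and the bin of CDKN2A has 32%.

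The list counts here and in the next paragraphs stand beside 4.48% of all transcript clusters that rose and 6.97% that fell. The lists are short, and their shares were not tested against these. Of the 5 D-type cyclins and their kinases, CDK6 rose and CDK4 fell (2 rose on centred arrays), and CCND2 and CCND3, cyclins D2 and D3, were 0.29 and 0.42 higher without passing in both clones. CCND2 passed in the mean of both clones only (limma adjusted p = 0.0377). Among 3 pocket proteins only RB1 passed, and its relatives RBL1 and RBL2, known as p107 and p130, differed by 0.21 and 0.27 without passing. Of 10 E2F genes and partners 1 fell and 0 rose, and on centred arrays 2 rose. The gene that fell was TFDP2, a dimerisation partner of E2F factors, with means of 8.61 in the clones and 9.83 in control cells (fell by 1.22, SE 0.14, adjusted p = 0.000435 in g2_1 and 0.000375 in g3_4). E2F1 itself differed by -0.02 (SE 0.10). The list medians in the mean of both clones were 0.29 for the cyclins and kinases, 0.21 for the pocket proteins and 0.01 for the E2F genes, beside 0.04 over all transcript clusters.

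Of 19 E2F target genes of S phase measured, 2 rose and 0 fell, with a list median of 0.08. Over fits that left out 1 array, 1 to 4 rose. TK1, the thymidine kinase of S phase, rose by 0.74 (SE 0.11), with means of 10.94 in the clones and 10.20 in control cells. MCM5, a subunit of the replicative helicase, rose by 0.44 (SE 0.10). Among 15 kinases, cyclins and activators of the CDK2 and CDK1 group, MNAT1 (of the CDK-activating kinase) rose by 0.54 and CDK1 by 0.46, and CDK2 fell by 0.38. On centred arrays 4 of the 15 rose and 0 fell. With array number as a block 4 of the 15 rose. The calls of MCM5, CDK1 and CDK2 were lost under 11, 7 and 12 of 17 alternatives.

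Of 13 genes for the turnover and transcription of p27, 3 rose and 0 fell, and 1 to 3 rose over fits that left out 1 array. FOXO1, a transcription factor that induces CDKN1B, rose by 1.04 (SE 0.16), with means of 8.12 in the clones and 7.07 in control cells. AKT1, a kinase that restrains FOXO1 and p27, rose by 0.58, and CUL1, the scaffold of the ubiquitin ligase that degrades p27, rose by 0.38 with a call lost under 11 of 17 alternatives. SKP2, the subunit of that ligase which recognises p27, was 0.54 lower without passing (adjusted p = 0.115 in g2_1 and 0.131 in g3_4).

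Of 16 Polycomb genes and other regulators of the INK4/ARF locus measured, 2 fell and 0 rose, and on centred arrays 1 rose. PHC1, a Polycomb subunit, fell by 0.98 (SE 0.13), with means of 7.54 in the clones and 8.53 in control cells. ETS1, a transcription factor known to activate the p16 promoter, fell by 0.53 (SE 0.08), with means of 10.62 in the clones and 11.15 in control cells. Of 10 genes of the ARF, MDM2 and p53 axis 1 fell, MDM4, an inhibitor of p53 (fell by 0.65, SE 0.13, a call lost under 3 of 17 alternatives). MDM2 was 0.72 higher without passing in both clones (adjusted p = 0.122 and 0.0972), and it passed with array number as a block (adjusted p of at most 0.0235).

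Around MTAP, 16 genes of methionine salvage and polyamine synthesis were measured, of which 1 fell and 0 rose. On centred arrays 0 fell and 2 rose, and over fits that left out 1 array 0 to 3 fell. The gene that fell was AZIN1, an inhibitor of antizyme (fell by 0.51, SE 0.11, a call lost under 10 of 17 alternatives). PRMT5, the methyltransferase that is inhibited by the substrate of MTAP, differed by 0.08 (SE 0.19). Of 12 imprinted genes of the region of CDKN1C measured, only PHLDA2 passed (2 genes rose on centred arrays), a gene known to restrain placental growth, which rose by 1.0 (SE 0.13), with means of 9.89 in the clones and 8.88 in control cells.

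**Figure D5:**
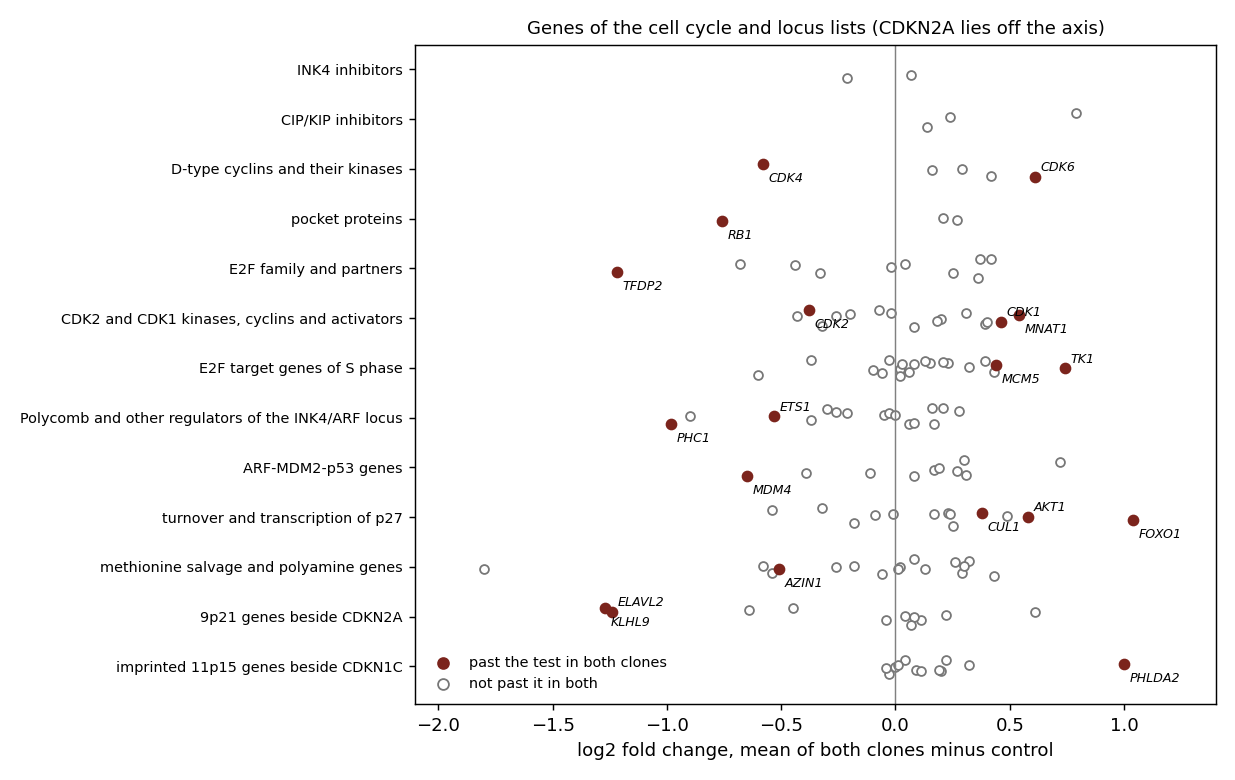
Log2 fold change of the mean of both clones minus control for genes of 13 lists around the members; filled points passed the test in both clones with the same sign and are named, open points did not. CDKN2A lies off the axis, and most lists hold 1 to 3 filled points.

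The genes whose profiles were most like each member over the 9 arrays are given as a description, since with 3 groups a shared group difference is enough for a high Pearson correlation. For CDKN2A they were TMEM52B (0.999) and RGS2 (0.998), for RB1 IL1RL1 (0.992) and IL6 (0.992), for CDK4 SUSD1 (0.992) and UBE2L6 (0.992), and for CDK6 CASP2 (0.992) and HPGD (0.992). Among the genes that did not pass in both clones, MTAP was most like ANAPC16 (0.982) and ELK4 (0.977), and CDKN1B most like INPP5J (0.979) and SRGAP2C (0.978). CDKN2D was most like GTF2IRD1 (0.963) and MMAA (0.951), CDKN1C most like LRP2 (0.950) and SLC25A31 (0.947), and CDKN2B most like SRPK1 (0.924) and CD84 (0.924).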

How the data were processed

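RNA of 9 L-1236 samples, 3 for each group of the labels, was measured on Clariom S arrays. The deposited values are log2 signals that the authors made with RMA (per the submitters' processing notes, in Transcriptome Analysis Console 4.0). RMA draws arrays to a similar distribution, and fold changes near the floor of an array can be compressed. The deposited values carry no detection flags, and the number of arrays limits the precision. The genome build is not given in the sources used here, and RefSeq (GRCh38.p14) was used for names, gene order and promoters only.

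Of 21448 rows, 555 with unmapped IDs were left out and 20893 were tested (R 4.3.3, limma 3.58.1, functions lmFit then eBayes, all 9 arrays, 1 coefficient for each group, two-sided, Benjamini-Hochberg over all rows tested, threshold 0.05). The fit was tested on simulated data. The members, and 17 lists of 184 genes (164 measured), were chosen with earlier results of these data known. The text names all members, LTA, up to 3 risen and 3 fallen genes of each list other than the 4 lists of cell type markers, defining markers of those 4, 9 further genes as values, the 3 measured genes nearest to the locus on each side, and the 2 genes most like each member. KLHL9 comes from a list.

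Deviations from the group means correlated positively between clone arrays of equal number (0.435, 0.191 and 0.310). Between clone and control arrays of equal number they correlated at 0.0426 to 0.298. Arrays numbered 1 correlated with each other (0.435, 0.285 and 0.298) and negatively with other numbers in the other groups (-0.346 to -0.104). Arrays of equal number thus shared a part of their deviations. The main fit followed the 3 labelled groups and did not take this part out. Alternatives were array weights, centring, filters, thresholds, a block for array number, fits of only the groups compared and leaving out arrays.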

Additional observations from a re-analysis of the deposited data

How the results depend on the processing

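CDKN2A, CDK4, CDK6 and RB1 kept their direction and stayed past the test in both clones under every alternative at an adjusted p of 0.05, with highest adjusted p-values of 0.0244 for CDK4, 0.0150 for CDK6 and 0.00278 for RB1. Where a log2 fold change of 1 or more was also required, 1 member passed in g2_1, in g3_4, in their mean and in both clones. Leaving out 1 array at a time gave 4 to 5 members in each of these. With array number as a replicate block, 5 passed in g2_1 and 4 in g3_4, MTAP being the one added (adjusted p = 0.0468), and the block changed no other call of a member; outside the members CDKN1A and MDM2 were among the genes it added. MTAP in the mean of both clones lost its call in 9 of 15 alternatives, with an adjusted p of up to 0.180; the low filter left MTAP out, and a fit of only the groups compared cannot give that mean.

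Sign changes were seen only in differences that had not passed. On centred arrays CDKN2D in g3_4 was 0.08 and E2F1 was 0.09. With array weights CDKN1B in g2_1 was -0.05 and CDKN2A in g2_1 minus g3_4 was 0.07, and without the arrays numbered 1 these were -0.07 and 0.02. Leaving out 1 array at a time gave -0.12 to 0.30 for CDKN1B in g2_1 and -0.01 to 0.41 in the mean of both clones, -0.06 to 0.11 for CDKN1C in g2_1, -0.05 to 0.02 for CDKN2D in g3_4, -0.12 to 0.06 for E2F1 and -0.11 to 0.36 for PRMT5. For g2_1 minus g3_4 it gave -0.12 to 0.19 for CDKN2A, -0.08 to 0.01 for MTAP and -0.03 to 0.09 for CDK4. The cause was not tested.

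Signals near the array floor, as for MTAP, ELAVL2 and IFT74 in the clones and for the interferon genes, cannot show a further fall.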

Other observations

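Some values of genes outside the members moved widely within the control group. SAT1, which acetylates polyamines, had 6.01 to 6.53 in the clones and 6.51 to 9.44 in control cells, and TBX3, a repressor known to act on the ARF promoter, had 4.32 to 4.41 in the clones and 4.57 to 6.05 in control cells. Neither passed in both clones (SAT1 adjusted p = 0.0598 in g2_1 and 0.0422 in g3_4, TBX3 0.0482 and 0.0609). Both were chosen after their values were seen.

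CDKN1A and MDM2, targets of p53, depended on single control arrays. Over fits that left out 1 array, CDKN1A was 0.50 to 1.13 higher in the mean of both clones (the higher of the clones' adjusted p-values 0.00454 to 0.259) and MDM2 0.36 to 1.02 higher (0.0187 to 0.286). The lowest value of each came without control array 1 and the highest without control array 3.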
